A study of Mus musculus with 8 samples.

Results

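The lysosome genes other than cathepsins were followed in lungs of Slc15a3 knockout and wild-type mice after bleomycin, an antitumour drug that breaks DNA and is used to provoke lung fibrosis in mice. The members were the genes of the deposited count table whose KEGG annotation holds the mouse lysosome pathway (mmu04142), leaving out the cathepsins, the transporters Ctns and Slc17a5, and Lamp3 and Napsa, which lamellar bodies of alveolar cells use. This gave 109 genes of the 127 so annotated and of 18824 genes in the table, and 104 of the 109 passed the filter on low counts. The groups were KO_BLM, 4 libraries from Slc15a3-/- mice, and WT_BLM, 4 libraries from WT mice. Mice of both genotypes were 8 weeks old and were given bleomycin into the trachea on day 0 (2 mg/kg, in 50 µl saline), with lungs taken on day 21. Saline-treated mice are not analysed here, so each difference is one between genotypes after bleomycin. The labels give no strain, batch, hour of killing or handling, and any of these that differed between the groups cannot be told apart from the genotype. Nor do they state whether each library is a mouse of its own; the p-values therefore reflect only how far these samples spread, some of which may be technical.

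A lysosome is an acidic compartment in which hydrolases take apart the material that endocytosis, phagocytosis and autophagy deliver. Most hydrolases are tagged with mannose 6-phosphate in the Golgi, bound by mannose 6-phosphate receptors and carried onward in vesicles coated with adaptor proteins and clathrin, while a proton pump (the V-ATPase) acidifies the lumen and heavily glycosylated membrane proteins line it. SLC15A3, also named PHT2, is a proton-coupled transporter that moves histidine and small peptides across the endolysosomal membrane, and macrophages, the main phagocytes of the alveoli, are rich in lysosomes. Bulk lung RNA does not tell fewer cells of a type apart from less RNA per cell.

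Levels are CPM, counts scaled to TMM-adjusted library size, or the deposited FPKM, which are scaled to gene length as well. The libraries held 17627999 to 18471445 counts in KO_BLM and 18878835 to 20180831 counts in WT_BLM. Slc15a3, which is not annotated to the lysosome pathway, had 8, 5, 18 and 15 counts in KO_BLM replicates 1 to 4, against 935, 1124, 974 and 841 counts in WT_BLM replicates 1 to 4. Its level was 0.6101 ± 0.303 CPM in KO_BLM and 51.3 ± 4.11 CPM in WT_BLM (SD, n = 4 each), and the groups did not overlap (log2 fold change −6.36 with an SE of 0.23, edgeR adjusted p = 9.36e-07). The labels and this gene go the same way in all 8 libraries.

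More lysosome genes fell than rose in KO_BLM. Of the 104 tested genes, 42 were lower and 10 higher in KO_BLM by edgeR's quasi-likelihood test (Benjamini-Hochberg adjusted p under 0.05 over all genes), and 52 were not called. Over all 14746 tested genes 41.5% were called, 20.8% lower and 20.7% higher, against 40.4% lower and 9.62% higher among the lysosome genes. The median log2 fold change, KO_BLM over WT_BLM, was −0.19 for the lysosome genes and 0.00 for all tested genes. Most changes were small: the lysosome genes ran from −1.46 to 0.52 on the log2 scale, and Lgmn, Cd68 and Litaf were the 3 called genes with a change of at least 1, which 12.1% of all tested genes reached. KO_BLM and WT_BLM values stood fully apart for 48 of the 104 genes, beside 40.9% of all tested genes. Scaling by library totals alone, which moved the median of all genes by under 0.1, called 29 lysosome genes lower and 15 higher, and 2253 and 3789 of all genes. Calls over all genes also became fewer when a library was left out. Without KO_BLM replicate 2, 27 lysosome genes were called lower and 6 higher, beside 2178 and 2316 of all genes. Without KO_BLM replicate 1, 29 were lower and 5 higher, beside 2559 and 2614 of all genes, and without WT_BLM replicate 1, 31 were lower and 6 higher, beside 2425 and 2386.

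**Figure D1:**
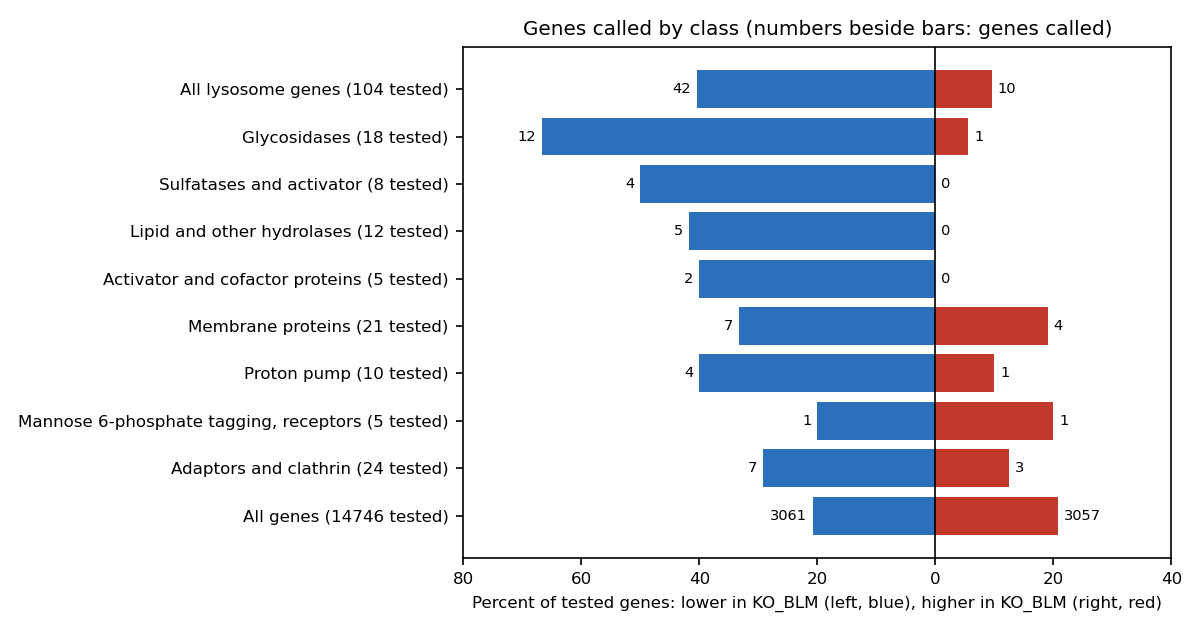
Percent of tested genes in each class called lower in KO_BLM (blue, left) and higher in KO_BLM (red, right) by edgeR at an adjusted p under 0.05, with the number of genes beside each bar and all tested genes in the last row. Glycosidases have the longest lower bar (12 of 18), and all genes divide about evenly (3061 lower, 3057 higher).

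By class, the counts were as follows. Of 18 glycosidases 12 were lower and 1 higher (median log2 fold change −0.51). Of 8 sulfatase genes 4 were lower and 0 higher (median −0.19), and of 12 lipid and other hydrolases 5 were lower and 0 higher (median −0.26). Of 5 activator and cofactor proteins 2 were lower and 0 higher (median −0.41). Of 21 membrane proteins 7 were lower and 4 higher (median −0.16), and of 10 proton pump genes 4 were lower and 1 higher (median −0.34). The 5 genes of mannose 6-phosphate tagging and its receptors had 1 lower and 1 higher (median −0.09), and the 24 adaptor and clathrin genes had 7 lower and 3 higher (median 0.02). These differences between classes were not tested. The remaining tested gene, Hyal3, is in no class and was not called. The pathway genes left out of the set, cathepsins among them, had 6 lower and 3 higher of 17 tested (median −0.36).

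**Figure D2:**
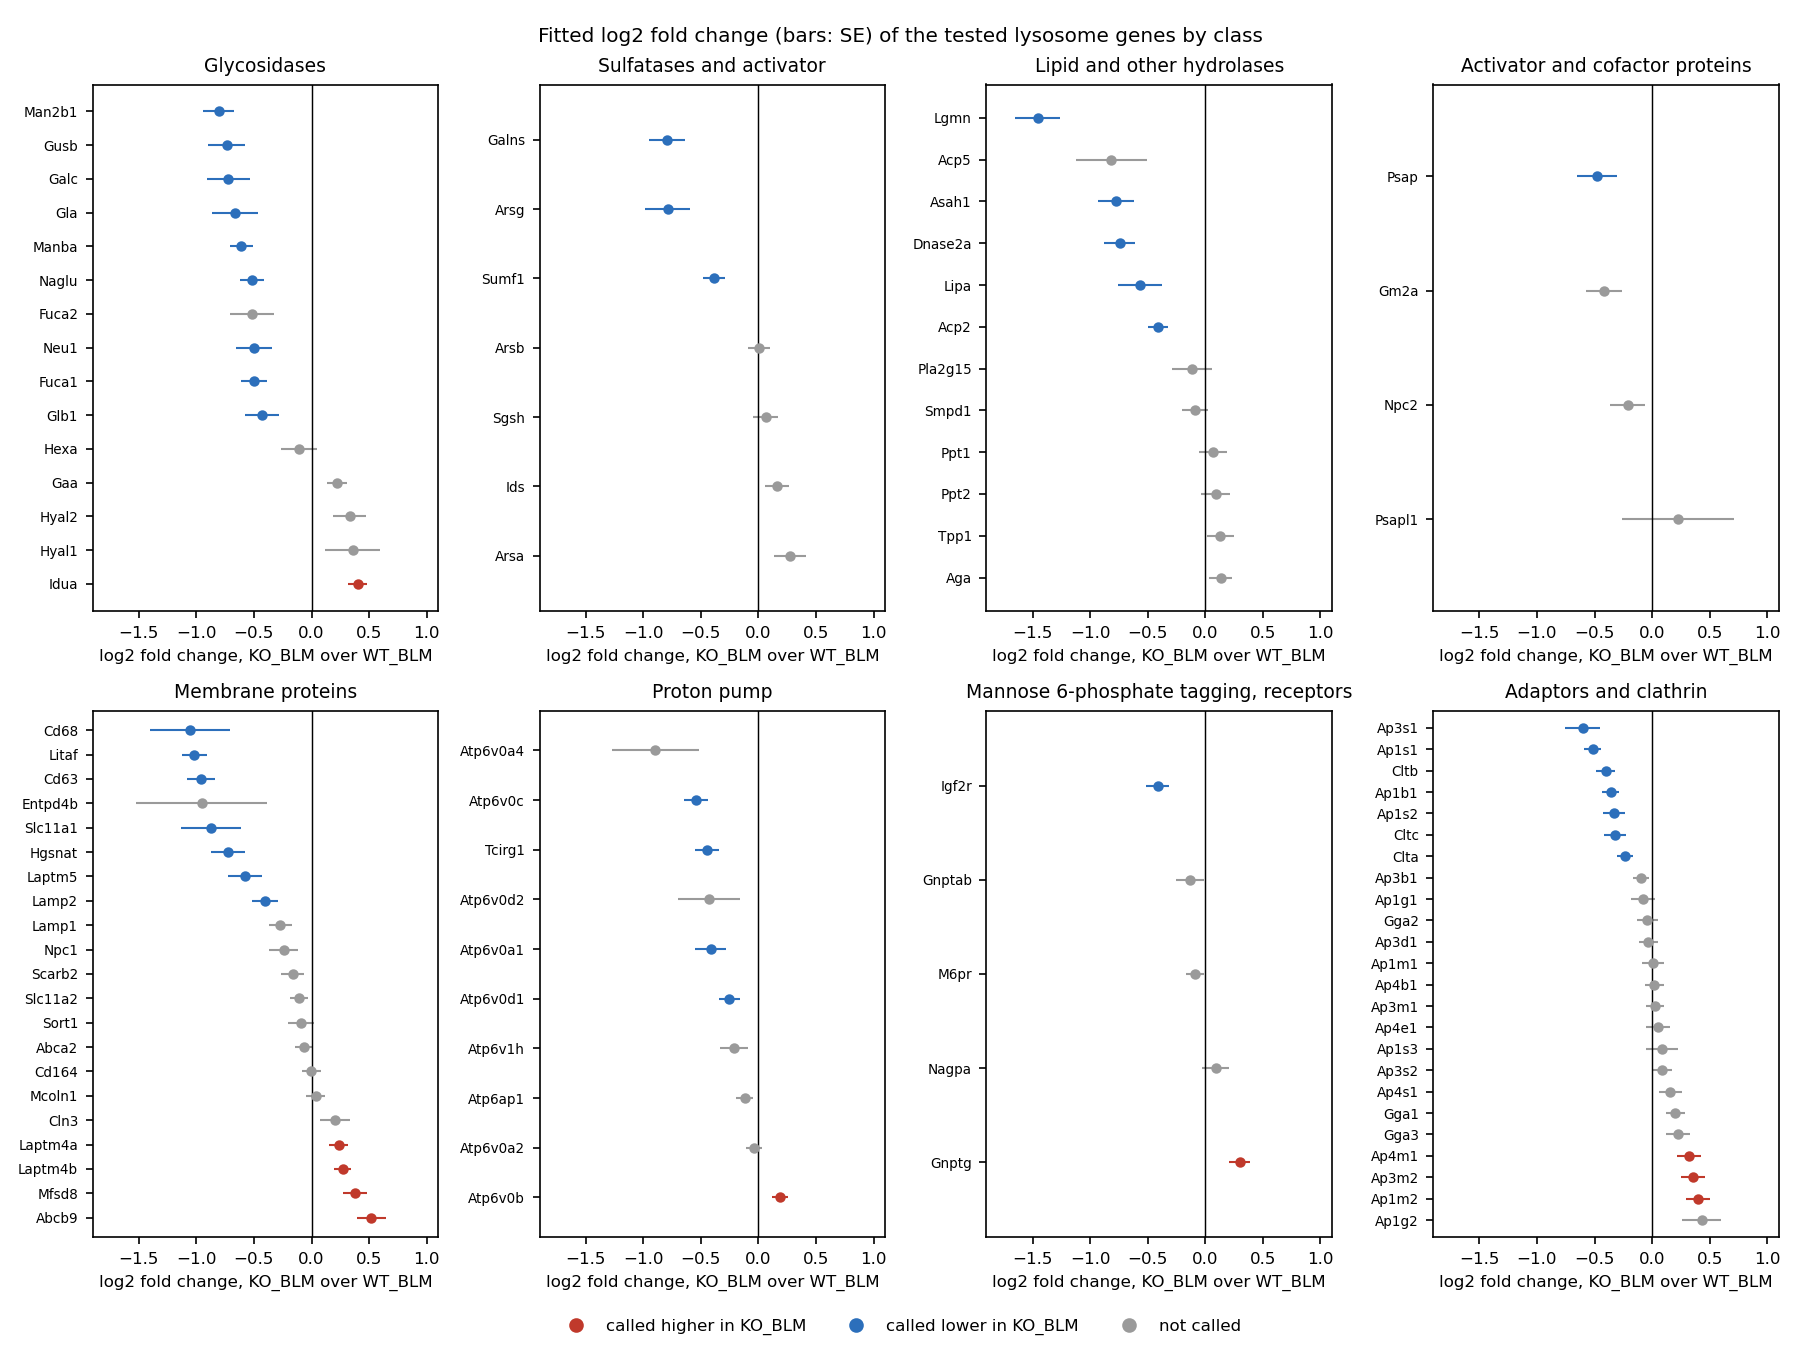
Fitted log2 fold change, KO_BLM over WT_BLM, for 98 tested lysosome genes in 8 classes (the other tested genes of these classes are not shown), with bars of 1 SE; red marks genes called higher in KO_BLM, blue genes called lower and grey genes not called. The blue points lie between −1.46 (Lgmn) and −0.24 (Clta), and the red points between 0.19 (Atp6v0b) and 0.52 (Abcb9).

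Promoters of the set were searched for the palindrome TCACGTGA, the core of the CLEAR element that TFEB and its relatives bind, and for the shorter E-box CACGTG that lies within it. RefSeq windows (GRCm38.p6, 300 bases, from 250 before to 50 after an annotated start) were at hand for 88 of the 109 genes, and a gene counted when any of its windows held the letters; both words read the same on both strands. The E-box was in 20 genes (22.7%), against 10.9% of all tested genes with a window and 8.09% of the whole promoter table. The longer core was in 8 genes (9.09%), against 1.96% of all tested genes and 1.12% of the table. By call, the E-box was in 24.2% of the genes called lower (8 of 33), 25.0% of those called higher (2 of 8) and 23.3% of those not called (10 of 43), and the core in 4, 1 and 3 of them. These are counts of letters and not of binding sites, and the shares were not tested. The 10 stretches that hold the core are shown because they are what these 8 genes share apart from their annotation; the core is in capitals, each stretch has 40 bases and reads 5′ to 3′ on the gene's own strand.
Atp6v0d1: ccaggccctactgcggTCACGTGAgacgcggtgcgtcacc
Cd164: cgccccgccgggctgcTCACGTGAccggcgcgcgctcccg
Cln3: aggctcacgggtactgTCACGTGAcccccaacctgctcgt
Gla, stretch 1: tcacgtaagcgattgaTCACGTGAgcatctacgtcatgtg
Gla, stretch 2: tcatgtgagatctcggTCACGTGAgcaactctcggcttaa
Gnptg: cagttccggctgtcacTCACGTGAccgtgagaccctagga
Igf2r, stretch 1: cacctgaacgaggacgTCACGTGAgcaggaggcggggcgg
Igf2r, stretch 2: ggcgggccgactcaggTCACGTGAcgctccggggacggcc
Mcoln1: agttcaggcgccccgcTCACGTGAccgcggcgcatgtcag
Sumf1: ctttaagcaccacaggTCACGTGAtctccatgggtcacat

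Atp6v0d1, Gla, Igf2r and Sumf1 of these genes fell, Gnptg rose, and Cd164, Cln3 and Mcoln1 were not called. The stretches lie on the minus strand at chr8:105566045-105566084 (Atp6v0d1), chr7:126583335-126583374 (Cln3), chrX:134601210-134601249 and chrX:134601177-134601216 (Gla), chr17:25240115-25240154 (Gnptg), chr17:12769732-12769771 and chr17:12769691-12769730 (Igf2r) and chr6:108185572-108185611 (Sumf1), and on the plus strand at chr10:41519396-41519435 (Cd164) and chr8:3500457-3500496 (Mcoln1). The core began between 4 bases (Atp6v0d1) and 228 bases (Gla) before an annotated start. Gnptg has another annotated start further upstream, and its core begins just after that one. Of the factors themselves, 3 of 4 tested MiT/TFE genes were lower, beside 20.8% of all tested genes. They were Tfe3 (log2 fold change −0.35 with an SE of 0.07, edgeR adjusted p = 0.00442), Mitf (−0.42, SE 0.11, adjusted p = 0.0122) and Tfec (−0.97, SE 0.27, adjusted p = 0.0181). The groups did not overlap for Tfe3 and Mitf. Those of Tfec overlapped at a low level, with 11.2 CPM in KO_BLM replicate 4 and 9.42 CPM in WT_BLM replicate 2. Whether these factors bear on the genes with the core was not tested. Tfeb stood at 36.2 ± 2.43 CPM in KO_BLM and 36.1 ± 3.91 CPM in WT_BLM (SD, n = 4 each; edgeR adjusted p = 0.979).

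Glycosidases clip sugars one by one from glycoproteins, glycolipids and glycosaminoglycans, and the 12 of 18 that fell cut several kinds of bond. Man2b1, the lysosomal alpha-mannosidase, had 146, 167, 226 and 176 CPM in KO_BLM replicates 1 to 4, against 340.1, 275, 307 and 329 CPM in WT_BLM replicates 1 to 4. Every KO_BLM library lay below every WT_BLM library, and the mean was 179 ± 33.7 CPM in KO_BLM and 313 ± 28.8 CPM in WT_BLM (SD, n = 4 each; log2 fold change −0.81 with an SE of 0.13, edgeR adjusted p = 0.00149). Manba, the beta-mannosidase that completes the same chain, had 46.4, 45.5, 51.4 and 47.9 CPM in KO_BLM, against 75.6, 62.3, 70.02 and 84.4 CPM in WT_BLM. It fell by 1.53-fold without overlap (log2 fold change −0.61 with an SE of 0.10, edgeR adjusted p = 0.00138). Naglu, an enzyme of heparan sulfate breakdown, had 35.2, 39.7, 49.8 and 43.2 CPM in KO_BLM, against 61.4, 59.6, 62.6 and 57.2 CPM in WT_BLM. It fell by 1.43-fold (log2 fold change −0.52 with an SE of 0.11, edgeR adjusted p = 0.004).

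Idua, the alpha-L-iduronidase of heparan and dermatan sulfate breakdown, was the glycosidase that rose. It had 27.4, 26.7, 28.8 and 27.5 CPM in KO_BLM, against 22.2, 22.1, 20.4 and 19.1 CPM in WT_BLM, with no overlap (log2 fold change 0.40 with an SE of 0.08, edgeR adjusted p = 0.00497). Its annotated span overlaps those of Slc26a1 and Dgkq, and the strand setting of the counting is not given in the sources used here. Further enzymes that fell were Gusb, the beta-glucuronidase (log2 fold change −0.74 with an SE of 0.16, edgeR adjusted p = 0.00597), Galc, the galactosylceramidase (−0.72, SE 0.18, adjusted p = 0.0118), and Fuca1, an alpha-fucosidase (−0.50, SE 0.11, adjusted p = 0.00691). Gla, the alpha-galactosidase, Neu1, the lysosomal sialidase, and Glb1, the beta-galactosidase, fell by 1.35-fold (Glb1) to 1.59-fold (Gla). Their edgeR adjusted p ran from 0.0240 (Gla) to 0.0371 (Glb1), and each call was lost without KO_BLM replicate 1 (adjusted p = 0.0565 for Gla, 0.0691 for Neu1 and 0.0846 for Glb1) and without KO_BLM replicate 2 (0.0693, 0.0826 and 0.0985). Some WT_BLM replicates and, for Glb1, KO_BLM replicate 4 had the same effect. With all libraries kept, library totals alone also ended each of these calls. The limma fits on FPKM ended those of Neu1 and Glb1, and only limma on log2(FPKM + 1) without a filter ended that of Gla. The range over alternatives was 0.00317 to 0.0693 for Gla, 0.0105 to 0.0868 for Neu1 and 0.00375 to 0.120 for Glb1.

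Fuca2, the other fucosidase, and Gaa, the enzyme of lysosomal glycogen breakdown, stood just outside the threshold on opposite sides. Fuca2 averaged 80.1 ± 18.8 CPM in KO_BLM and 115 ± 24.6 CPM in WT_BLM (SD, n = 4 each; log2 fold change −0.52 with an SE of 0.19, edgeR adjusted p = 0.0511), and DESeq2 called it (adjusted p = 0.0262), as did fits without KO_BLM replicate 3 or 4 or WT_BLM replicate 2; the range over alternatives was 0.0185 to 0.138. Gaa averaged 149 ± 8.41 CPM in KO_BLM and 128 ± 10.9 CPM in WT_BLM (SD, n = 4 each; log2 fold change 0.22 with an SE of 0.09, edgeR adjusted p = 0.0632), and it was called higher with library totals alone (adjusted p = 0.0282; 0.0258 to 0.132 over alternatives). Hyal2, a hyaluronidase, averaged 113 ± 22.8 CPM in KO_BLM and 89.9 ± 9.47 CPM in WT_BLM (SD, n = 4 each; log2 fold change 0.33 with an SE of 0.14, edgeR adjusted p = 0.0854), and was called higher without KO_BLM replicate 3 (adjusted p = 0.0436, range 0.0322 to 0.225). The alpha subunit of hexosaminidase A, Hexa, is the most abundant glycosidase here (86.8 ± 18.3 FPKM in KO_BLM and 88.0 ± 16.2 FPKM in WT_BLM, SD, n = 4 each). It had 138, 158, 204 and 201 CPM in KO_BLM, against 202, 206, 203 and 143 CPM in WT_BLM, where replicate 4 was far below the other libraries. The groups overlapped (log2 fold change −0.11 with an SE of 0.16, edgeR adjusted p = 0.616).

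**Figure D3:**
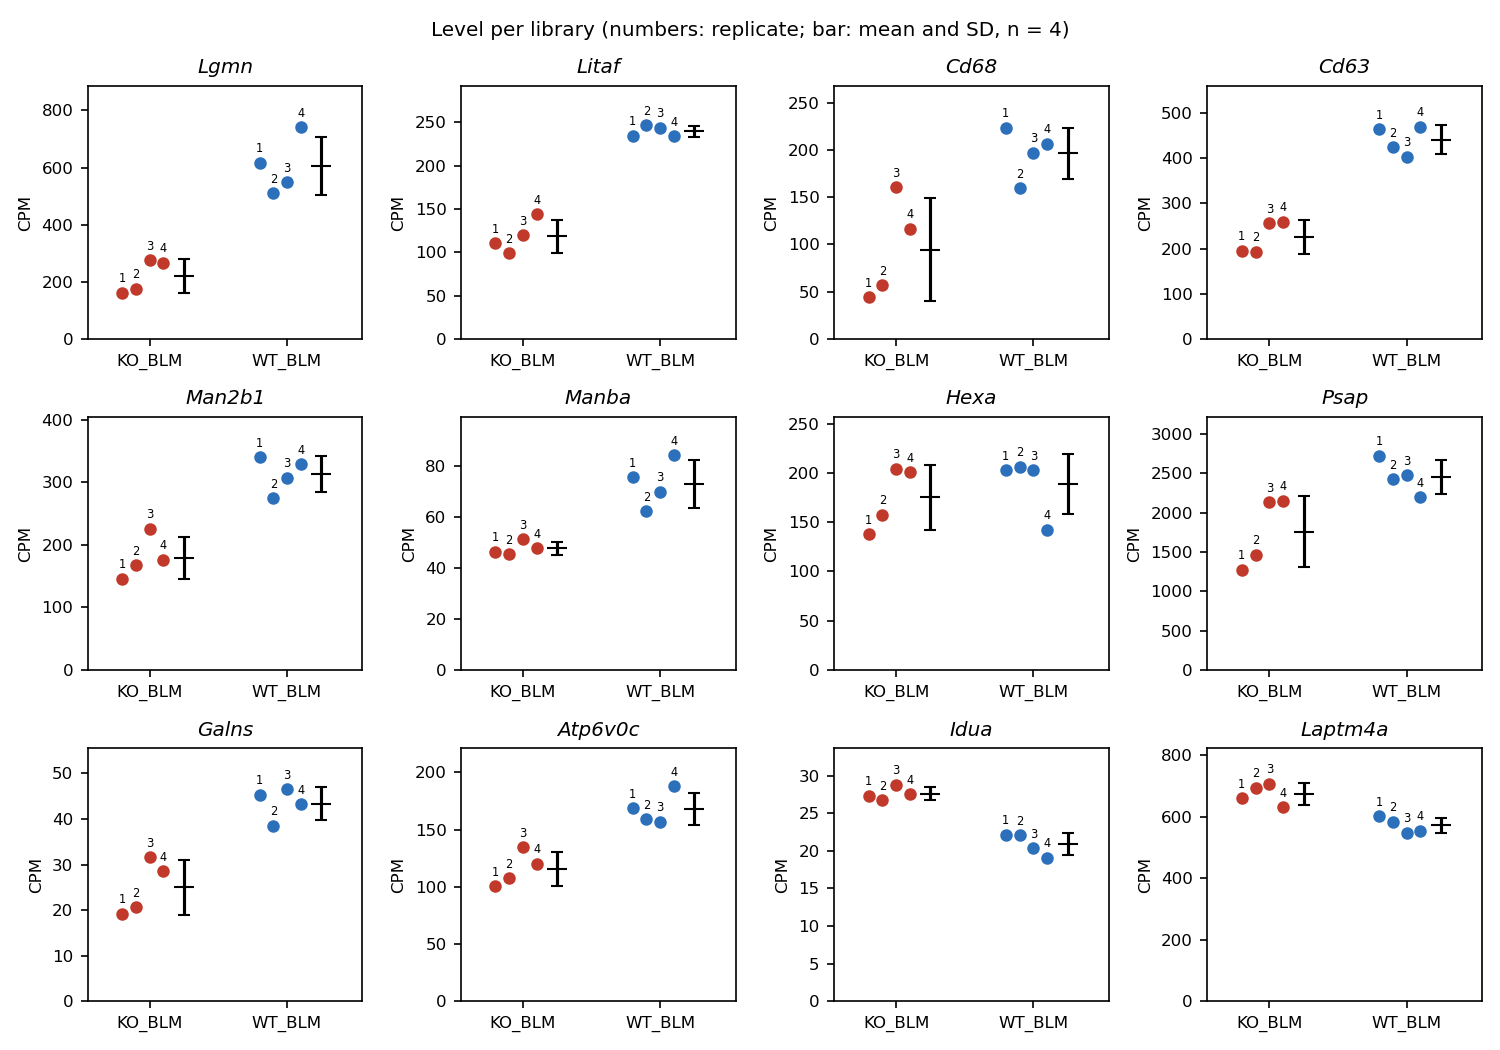
Level in CPM of 12 lysosome genes in each library, KO_BLM in red and WT_BLM in blue, with replicate numbers above the points and a bar for mean and SD (n = 4). KO_BLM replicates 1 and 2 are the lower libraries in most panels, Hexa and Cd68 overlap between the groups, and Idua and Laptm4a are higher in KO_BLM.

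Enzymes that remove sulfate from glycosaminoglycans were lower or not called. Galns, which acts on keratan sulfate and chondroitin 6-sulfate, had 19.2, 20.6, 31.6 and 28.5 CPM in KO_BLM, against 45.3, 38.5, 46.6 and 43.2 CPM in WT_BLM. No value overlapped, and replicates 1 and 2 were lowest in KO_BLM (log2 fold change −0.80 with an SE of 0.16, edgeR adjusted p = 0.00358). Arsg, a sulfatase of heparan sulfate breakdown, had 8.15, 6.75, 9.801 and 8.71 CPM in KO_BLM, against 14.2, 10.02, 15.1 and 18.5 CPM in WT_BLM. It fell by 1.73-fold at a low level (log2 fold change −0.79 with an SE of 0.19, edgeR adjusted p = 0.00962). Sumf1, which makes the formylglycine that all sulfatases need, had 51.8, 49.4, 54.2 and 53.9 CPM in KO_BLM, against 72.4, 58.8, 64.3 and 77.4 CPM in WT_BLM, with no overlap (log2 fold change −0.38 with an SE of 0.10, edgeR adjusted p = 0.0108). The 4 sulfatases that were not called, Arsa, Arsb, Ids and Sgsh, had log2 fold changes from 0.00 to 0.28, and 1 sulfatase was called higher without WT_BLM replicate 2.

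Lgmn fell most of the whole set. It encodes legumain, an asparaginyl endopeptidase that also cuts cathepsins into their mature forms, and it was the most abundant of the lipid and other hydrolases. Its level was 162, 176, 276 and 267 CPM in KO_BLM, against 618, 511, 549 and 741 CPM in WT_BLM. Every KO_BLM library lay below every WT_BLM library, and the mean was 220.4 ± 59.4 CPM in KO_BLM and 605 ± 101 CPM in WT_BLM (SD, n = 4 each). It was lower by 2.74-fold (log2 fold change −1.46 with an SE of 0.19, edgeR adjusted p = 0.000494), and the call held in all 18 alternatives.

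Dnase2a, which digests the DNA of engulfed cells, had 19.9, 23.3, 30.97 and 25.9 CPM in KO_BLM, against 43.6, 40.97, 46.02 and 36.6 CPM in WT_BLM. It fell by 1.67-fold without overlap (log2 fold change −0.74 with an SE of 0.13, edgeR adjusted p = 0.00239). Asah1, the acid ceramidase, had 174, 177, 230.4 and 209 CPM in KO_BLM, against 333, 276, 298 and 445 CPM in WT_BLM, where replicate 4 was the highest (log2 fold change −0.77 with an SE of 0.16, edgeR adjusted p = 0.00404). Acp2, a lysosomal acid phosphatase, had 63.6, 60.7, 75.1 and 73.8 CPM in KO_BLM, against 92.2, 86.1, 92.9 and 91.1 CPM in WT_BLM, with no overlap (log2 fold change −0.41 with an SE of 0.09, edgeR adjusted p = 0.00544). Lipa, the acid lipase that frees cholesterol and fatty acids from lipoproteins, averaged 116 ± 34.5 CPM in KO_BLM and 172 ± 17.3 CPM in WT_BLM (SD, n = 4 each; log2 fold change −0.57 with an SE of 0.19, edgeR adjusted p = 0.0353). The Lipa call was lost without KO_BLM replicate 1 or 2 or WT_BLM replicate 1, 3 or 4 (adjusted p = 0.0744, 0.0974, 0.0882, 0.0671 and 0.0579; range over alternatives 0.0120 to 0.0974). With all libraries kept, it was also lost with library totals alone and in the limma fits on FPKM.

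Acp5, the tartrate-resistant acid phosphatase of macrophages and osteoclasts, spread widely among the KO_BLM libraries. It had 32.1, 38.9, 92.02 and 82.1 CPM in KO_BLM, against 111, 85.3, 117 and 119 CPM in WT_BLM, and replicate 3 of KO_BLM lay above the lowest WT_BLM library (log2 fold change −0.82 with an SE of 0.31, edgeR adjusted p = 0.0557). DESeq2 called it lower (adjusted p = 0.0185), and so did fits without KO_BLM replicate 3 or 4 or WT_BLM replicate 2 (range over alternatives 0.0181 to 0.136). The palmitoyl thioesterases Ppt1 and Ppt2, which strip fatty acids from proteins, and the peptidase Tpp1 were not called. Ppt1 had 99.5, 113, 135 and 119.6 CPM in KO_BLM, against 114, 124, 117 and 90.1 CPM in WT_BLM. Ppt2 had 41.5, 42.2, 41.9 and 32.6 CPM in KO_BLM, against 36.7, 34.4, 44.9 and 32.6 CPM in WT_BLM. Values of both overlapped throughout. Tpp1 averaged 224 ± 29.01 CPM in KO_BLM and 204 ± 23.1 CPM in WT_BLM (SD, n = 4 each; edgeR adjusted p = 0.394).

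The activator proteins help hydrolases reach their lipid substrates, and they include the most abundant transcript of the set. Psap encodes prosaposin, which is cut into the saposins that present glycolipids to their enzymes. It had 1274, 1469, 2137 and 2153 CPM in KO_BLM, against 2726, 2425, 2481 and 2195 CPM in WT_BLM, or 656 ± 184 FPKM in KO_BLM and 860.1 ± 85.0 FPKM in WT_BLM (SD, n = 4 each). The highest KO_BLM libraries, replicates 3 and 4, ended just under the lowest WT_BLM library, and the call was near the threshold (log2 fold change −0.48 with an SE of 0.17, edgeR adjusted p = 0.0477). It was lost without KO_BLM replicate 1 (adjusted p = 0.0971) or 2 (0.131) and without WT_BLM replicate 1 (0.113), 2 (0.0703) or 3 (0.0865), and ranged from 0.0174 to 0.149 over alternatives. With all libraries kept, the Psap call was also lost with library totals alone, in the limma fits on FPKM and with the replicate block. Gm2a, the activator of GM2 ganglioside breakdown, averaged 184 ± 40.4 CPM in KO_BLM and 246 ± 28.8 CPM in WT_BLM (SD, n = 4 each; log2 fold change −0.42 with an SE of 0.16, edgeR adjusted p = 0.0539) and was called lower without KO_BLM replicate 3 (adjusted p = 0.0201) or WT_BLM replicate 4 (0.0339; range 0.0201 to 0.177). Npc2, which carries cholesterol to the lysosomal membrane, averaged 1229 ± 82.7 CPM in KO_BLM and 1424 ± 331 CPM in WT_BLM (SD, n = 4 each; edgeR adjusted p = 0.283). Without KO_BLM replicate 1 or 2, 0 activators were called lower by edgeR, and without WT_BLM replicate 1, 2 or 3, 1 was.

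Membrane proteins divided into genes that fell and genes that rose. Litaf, an endosomal membrane protein that sorts cargo, had 111, 99.4, 120.1 and 144 CPM in KO_BLM, against 235, 247, 244 and 234 CPM in WT_BLM. The WT_BLM libraries lay close together and far above every KO_BLM library, at 119 ± 18.9 CPM in KO_BLM and 239.9 ± 6.38 CPM in WT_BLM (SD, n = 4 each). It was lower by 2.02-fold (log2 fold change −1.02 with an SE of 0.11, edgeR adjusted p = 0.000158). Cd63, a tetraspanin of late endosomes and exosomes, had 195, 193, 256 and 259 CPM in KO_BLM, against 464, 424, 403 and 469 CPM in WT_BLM, also without overlap (log2 fold change −0.96 with an SE of 0.12, edgeR adjusted p = 0.000364). Cd68, a lysosomal glycoprotein that marks macrophages, had 44.02, 56.6, 160.4 and 117 CPM in KO_BLM, against 223, 159.6, 197 and 206 CPM in WT_BLM. KO_BLM replicate 3 reached the lowest WT_BLM library, while replicates 1 and 2 lay far below (log2 fold change −1.06 with an SE of 0.35, edgeR adjusted p = 0.0346). The Cd68 call was lost without KO_BLM replicate 1 (adjusted p = 0.0530) or 2 (0.0882) and without WT_BLM replicate 1 (0.0780), 3 (0.0622) or 4 (0.0653), with a range over alternatives of 0.00826 to 0.0882. With all libraries kept, it was also lost with library totals alone, without the count filter and in limma on log2(FPKM + 1) without a filter.

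Hgsnat, which acetylates heparan sulfate across the membrane, had 60.7, 55.7, 67.5 and 57.3 CPM in KO_BLM, against 102, 79.1, 87.7 and 129.9 CPM in WT_BLM. It fell by 1.65-fold without overlap (log2 fold change −0.73 with an SE of 0.15, edgeR adjusted p = 0.00388). Laptm5, a lysosomal protein of blood cells, had 225, 259.8, 357 and 311 CPM in KO_BLM, against 422, 439, 491 and 371 CPM in WT_BLM, without overlap (log2 fold change −0.58 with an SE of 0.15, edgeR adjusted p = 0.0112). Slc11a1, the metal transporter Nramp1 of phagosomes in macrophages, had 13.99, 18.7, 37.4 and 26.4 CPM in KO_BLM, against 49.4, 49.8, 43.4 and 34.6 CPM in WT_BLM. KO_BLM replicate 3 overlapped the WT_BLM libraries (log2 fold change −0.87 with an SE of 0.26, edgeR adjusted p = 0.0232), and the call was lost without KO_BLM replicate 2 (adjusted p = 0.0664) or WT_BLM replicate 1 (0.0580; range 0.00366 to 0.0664). Slc11a2, its widely expressed relative, had 53.3, 55.8, 49.5 and 49.5 CPM in KO_BLM, against 54.3, 53.4, 54.5 and 62.4 CPM in WT_BLM, and was not called (edgeR adjusted p = 0.3).

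LAMP1 and LAMP2 make up much of the lysosomal membrane's protein coat, and LAMP2 also serves autophagy. Lamp2 had 333, 358, 397 and 419 CPM in KO_BLM, against 497, 442, 463 and 593 CPM in WT_BLM. It fell without overlap (log2 fold change −0.40 with an SE of 0.12, edgeR adjusted p = 0.0189), and the call was lost without KO_BLM replicate 1 (adjusted p = 0.0504) or 2 (0.0636; range 0.00388 to 0.0636). Lamp1, the most abundant membrane protein of the set (454 ± 40.6 FPKM in KO_BLM and 515 ± 37.7 FPKM in WT_BLM, SD, n = 4 each), had 925, 930.1, 1055 and 1023 CPM in KO_BLM, against 1231, 1057, 1123 and 1336 CPM in WT_BLM. The groups did not overlap, yet the test was just missed (log2 fold change −0.27 with an SE of 0.10, edgeR adjusted p = 0.0523), and DESeq2 (adjusted p = 0.0175) and a fit without WT_BLM replicate 2 (0.0346) called it lower (range 0.0175 to 0.196). Scarb2, a sorting receptor of the lysosomal membrane, averaged 386 ± 31.1 CPM in KO_BLM and 433 ± 43.3 CPM in WT_BLM (SD, n = 4 each; edgeR adjusted p = 0.198). Npc1, the cholesterol exporter, averaged 145 ± 8.46 CPM in KO_BLM and 171 ± 32.1 CPM in WT_BLM (SD, n = 4 each; edgeR adjusted p = 0.149) and was called lower without WT_BLM replicate 2 (adjusted p = 0.0477, range 0.0477 to 0.365).

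The 4 membrane genes that rose were Abcb9, Mfsd8, Laptm4b and Laptm4a. Abcb9, a peptide transporter of the lysosomal membrane, had 11.2, 11.9, 13.1 and 10.8 CPM in KO_BLM, against 8.47, 7.29, 9.32 and 7.79 CPM in WT_BLM. It rose by 1.43-fold without overlap (log2 fold change 0.52 with an SE of 0.13, edgeR adjusted p = 0.00995). Laptm4a, a lysosomal protein expressed in many tissues, had 661, 694, 708 and 630.3 CPM in KO_BLM, against 602, 583, 548 and 554 CPM in WT_BLM, also without overlap (log2 fold change 0.24 with an SE of 0.08, edgeR adjusted p = 0.0381). Laptm4a lost its call without KO_BLM replicate 1, 2 or 3 or any single WT_BLM replicate (adjusted p = 0.0581 to 0.104 in those fits, and 0.00367 to 0.104 over all alternatives). Laptm4b, its near relative, rose by 1.21-fold (log2 fold change 0.27 with an SE of 0.08, edgeR adjusted p = 0.0174). Mfsd8, a transporter-like protein lost in a neuronal ceroid lipofuscinosis, rose by 1.302-fold (log2 fold change 0.38 with an SE of 0.10, edgeR adjusted p = 0.0158), and the call was lost without KO_BLM replicate 1 (adjusted p = 0.0507, range 0.00319 to 0.0507). The class had 2 genes called higher without KO_BLM replicate 1, and 4 called lower without KO_BLM replicate 2.

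The V-ATPase has a membrane sector, V0, through which protons pass, and a cytosolic sector, V1, which burns ATP. Nearly all pump genes annotated to the lysosome pathway belong to V0. Atp6v0c, the ring subunit that carries the protons, had 100.4, 108, 134 and 120.04 CPM in KO_BLM, against 169, 159, 157 and 188 CPM in WT_BLM. It fell by 1.45-fold without overlap (log2 fold change −0.54 with an SE of 0.11, edgeR adjusted p = 0.00358). Tcirg1, the a3 subunit known from osteoclasts, had 141, 152, 161 and 171 CPM in KO_BLM, against 236, 197, 231 and 186 CPM in WT_BLM, without overlap (log2 fold change −0.44 with an SE of 0.10, edgeR adjusted p = 0.00766). Atp6v0a1, the a1 subunit, had 171, 169, 192 and 188 CPM in KO_BLM, against 234, 196, 217 and 313 CPM in WT_BLM (log2 fold change −0.42 with an SE of 0.14, edgeR adjusted p = 0.0336). Atp6v0d1, the widely expressed d subunit, had 130.3, 129, 154 and 136 CPM in KO_BLM, against 166, 147, 161 and 180.4 CPM in WT_BLM, and its groups overlapped (log2 fold change −0.25 with an SE of 0.09, edgeR adjusted p = 0.0471).

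The calls of Atp6v0a1 and Atp6v0d1 were near the threshold. With all libraries kept, both were lost with library totals alone and in the limma fits on FPKM. That of Atp6v0d1 was also lost without the count filter and with the replicate block. By edgeR, 2 pump genes were called lower without KO_BLM replicate 1, KO_BLM replicate 2 or WT_BLM replicate 1. The call of Atp6v0a1 was lost without any single KO_BLM replicate or without WT_BLM replicate 1 (edgeR adjusted p = 0.0535 to 0.0949 in those fits, range over alternatives 0.0155 to 0.0949). That of Atp6v0d1 was lost without KO_BLM replicate 1, 2 or 4 or WT_BLM replicate 1, 3 or 4 (edgeR adjusted p = 0.0744 to 0.136 in those fits, range 0.0233 to 0.156). Atp6v0d2, the d subunit of osteoclasts and macrophages, had 41.8, 38.8, 73.8 and 96.7 CPM in KO_BLM, against 99.6, 64.9, 86.5 and 87.3 CPM in WT_BLM. KO_BLM replicates 1 and 2 were below every WT_BLM library and replicate 4 was near the top (log2 fold change −0.43 with an SE of 0.27, edgeR adjusted p = 0.229), and without replicate 4 it was called lower (edgeR adjusted p = 0.0385, log2 fold change −0.72, range of p 0.0385 to 0.476). Atp6v0a4, an a subunit of kidney and airway cells, averaged 8.42 ± 1.6 CPM in KO_BLM and 15.7 ± 10.01 CPM in WT_BLM (SD, n = 4 each; log2 fold change −0.90 with an SE of 0.38, edgeR adjusted p = 0.0802), and was called lower without WT_BLM replicate 2 (adjusted p = 0.0290) or 3 (0.0476; range 0.0290 to 0.248). WT_BLM replicates 1 to 4 had 15.7, 8.08, 9.16 and 29.8 CPM, so replicate 4 raised the WT_BLM mean. Over the fits that left out 1 library, the log2 fold change ran from −1.12 to −0.38. Atp6v0b, another ring subunit and the pump gene that rose, averaged 176 ± 3.48 CPM in KO_BLM and 154 ± 6.27 CPM in WT_BLM (SD, n = 4 each; log2 fold change 0.19 with an SE of 0.07, edgeR adjusted p = 0.0492), and its call was lost when any single library was left out (adjusted p = 0.0748 to 0.107 in those fits, range 0.00794 to 0.107). Atp6ap1, an accessory subunit, averaged 272 ± 9.87 CPM in KO_BLM and 295 ± 14.5 CPM in WT_BLM (SD, n = 4 each; edgeR adjusted p = 0.223).

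Further pump genes lie outside the pathway annotation. Of 12 tested of 15 listed, mostly V1 subunits, 0 were lower and 2 higher by edgeR, and 3 had an unadjusted p under 0.05 in either direction. Over all 14746 tested genes, 20.8% were lower and 20.7% higher, and 7536 had an unadjusted edgeR p under 0.05. Atp6v1c2, a C subunit of lung and kidney epithelium, averaged 49.1 ± 17.1 CPM in KO_BLM and 15.8 ± 3.65 CPM in WT_BLM (SD, n = 4 each; log2 fold change 1.63 with an SE of 0.26, edgeR adjusted p = 0.00125). Atp6v0e2, a small membrane subunit, averaged 29.7 ± 2.16 CPM in KO_BLM and 15.6 ± 3.03 CPM in WT_BLM (SD, n = 4 each; log2 fold change 0.93 with an SE of 0.14, edgeR adjusted p = 0.000920). The median log2 fold change of these 12 genes was −0.05, beside 0.00 for all tested genes.

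Of the genes that tag hydrolases with mannose 6-phosphate and return the receptors, Igf2r fell and Gnptg rose. Igf2r, the large mannose 6-phosphate receptor that also clears IGF2, had 113, 119, 130.2 and 140.2 CPM in KO_BLM, against 184, 176, 164 and 146 CPM in WT_BLM. WT_BLM replicate 4 was the closest to the KO_BLM libraries, and the groups did not overlap (log2 fold change −0.41 with an SE of 0.10, edgeR adjusted p = 0.00950). Gnptg, the gamma subunit of the phosphotransferase that adds the tag, had 54.5, 57.8, 55.9 and 46.8 CPM in KO_BLM, against 47.7, 39.7, 43.6 and 43.9 CPM in WT_BLM. The groups overlapped (log2 fold change 0.30 with an SE of 0.09, edgeR adjusted p = 0.0261), the span of the gene overlaps Unkl and Tsr3, and the call was lost without KO_BLM replicate 1 (adjusted p = 0.0575), 2 (0.0789) or 3 (0.0574) or WT_BLM replicate 2 (0.0676) or 3 (0.0541; range 0.00570 to 0.0789). M6pr, the small cation-dependent receptor and the most abundant of the class (91.4 ± 7.85 FPKM in KO_BLM and 91.3 ± 5.18 FPKM in WT_BLM, SD, n = 4 each), had 209.8, 215, 227 and 239 CPM in KO_BLM, against 230.04, 249, 226 and 242 CPM in WT_BLM (edgeR adjusted p = 0.383). Nagpa, the uncovering enzyme that exposes the tag, averaged 32.1 ± 1.62 CPM in KO_BLM and 30.2 ± 4.65 CPM in WT_BLM (SD, n = 4 each; edgeR adjusted p = 0.562).

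Adaptor complexes select cargo for coated vesicles, and clathrin forms the coat. Ap1s1, the sigma subunit of the AP-1 complex at the Golgi, had 67.7, 65.8, 77.4 and 71.6 CPM in KO_BLM, against 101, 99.8, 105 and 97.5 CPM in WT_BLM. It fell by 1.43-fold with narrow spread in both groups (log2 fold change −0.52 with an SE of 0.08, edgeR adjusted p = 0.000838). Ap1b1, the beta subunit of AP-1, had 93.4, 97.5, 100.05 and 85.3 CPM in KO_BLM, against 120, 124, 122 and 116 CPM in WT_BLM, without overlap (log2 fold change −0.36 with an SE of 0.08, edgeR adjusted p = 0.00472). Ap3s1, a sigma subunit of AP-3, which sends membrane proteins to lysosomes, had 26.2, 27.4, 34.2 and 44.3 CPM in KO_BLM, against 48.2, 48.7, 49.8 and 54.2 CPM in WT_BLM (log2 fold change −0.60 with an SE of 0.15, edgeR adjusted p = 0.0117). The light chains of clathrin also fell. Cltb had 127, 122, 114 and 121 CPM in KO_BLM, against 161, 152, 151 and 178 CPM in WT_BLM (log2 fold change −0.40 with an SE of 0.08, edgeR adjusted p = 0.00381). Clta, the most abundant gene of the class, had 150.1, 139.7, 158 and 156 CPM in KO_BLM, against 174, 180.4, 184 and 171 CPM in WT_BLM (log2 fold change −0.24 with an SE of 0.07, edgeR adjusted p = 0.0270). The groups of both light chains did not overlap.

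The heavy chain Cltc (−0.32, SE 0.09, edgeR adjusted p = 0.0197) and the second sigma subunit Ap1s2 (−0.33, SE 0.10, adjusted p = 0.0199) fell as well on the log2 scale. Single libraries ended several of these calls by edgeR: Clta without KO_BLM replicate 1 or 2 or WT_BLM replicate 1, 2 or 3 (adjusted p = 0.0558 to 0.0956, range over alternatives 0.00169 to 0.167), Cltc without KO_BLM replicate 1 (0.0511) or 2 (0.0759; range 0.00321 to 0.0836), and Ap1s2 without KO_BLM replicate 2 (0.0569) or WT_BLM replicate 1 (0.0600) or 3 (0.0508; range 0.00637 to 0.124). With all libraries kept, the calls of Clta, Cltc and Ap1s2 were also lost with library totals alone and in the limma fits on FPKM. The adaptor genes that rose were all mu subunits, which read sorting signals. Ap1m2, the mu subunit of epithelial AP-1, had 32.4, 34.8, 37.8 and 37.6 CPM in KO_BLM, against 26.8, 23.95, 25.9 and 31.6 CPM in WT_BLM, without overlap (log2 fold change 0.40 with an SE of 0.10, edgeR adjusted p = 0.0123). Ap1m1, its widely expressed relative, had 78.6, 79.1, 75.96 and 65.7 CPM in KO_BLM, against 77.3, 79.1, 76.8 and 63.9 CPM in WT_BLM, and the values overlapped (edgeR adjusted p = 0.942). Ap3m2 rose by 1.28-fold (log2 fold change 0.35 with an SE of 0.10, edgeR adjusted p = 0.0212) but not without WT_BLM replicate 1 (adjusted p = 0.0658) or 2 (0.0501; range 0.00596 to 0.0658). Ap4m1 rose by 1.25-fold (log2 fold change 0.32 with an SE of 0.10, edgeR adjusted p = 0.0344) but not without KO_BLM replicate 1 or 2 or WT_BLM replicate 1, 3 or 4 (adjusted p = 0.0688 to 0.0951, range 0.0151 to 0.0951), and its span overlaps Mcm7 and Taf6. Without KO_BLM replicate 2, 4 genes of the class were called lower, and without WT_BLM replicate 1, 1 was called higher. Gga1, a monomeric adaptor, averaged 138 ± 8.67 CPM in KO_BLM and 119.5 ± 7.69 CPM in WT_BLM (SD, n = 4 each; log2 fold change 0.20 with an SE of 0.08, edgeR adjusted p = 0.0680) and was called higher with library totals alone (adjusted p = 0.0210; 0.0185 to 0.163 over alternatives). Ap1g1, the gamma subunit of AP-1, averaged 119 ± 12.1 CPM in KO_BLM and 126 ± 14.7 CPM in WT_BLM (SD, n = 4 each; edgeR adjusted p = 0.567).

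Pairs of relatives and partner subunits were compared within each library, as the log2 ratio of 1 gene's CPM to the other's. Of 10 pairs, none passed after Benjamini-Hochberg adjustment (lowest adjusted p = 0.143), and 0.0286 is the smallest p that an exact permutation test over the 70 arrangements of 4 against 4 can give. Over 10 pairs, 1 pair could therefore pass only if several others also reached that p, so the lack of a pass says little. Laptm5 to Laptm4a had log2 ratios of −1.55, −1.42, −0.99 and −1.02 in KO_BLM, against −0.51, −0.41, −0.16 and −0.58 in WT_BLM, with no overlap between the groups (difference −0.83, two-sided exact permutation p = 0.0286, adjusted p = 0.143). Slc11a1 to Slc11a2 differed by −0.83 (exact permutation p = 0.0571, adjusted p = 0.143) and Lamp2 to Lamp1 by −0.13 (p = 0.0571, adjusted p = 0.143).

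The ratio of Ap1m2 to Ap1m1 was higher by 0.38 in KO_BLM (exact permutation p = 0.0857, adjusted p = 0.171). Acp5 to Acp2 differed by −0.53 (exact permutation p = 0.2, adjusted p = 0.286), Atp6v0d2 to Atp6v0d1 by −0.26 (p = 0.4, adjusted p = 0.5) and Cltb to Clta by −0.16 (p = 0.171, adjusted p = 0.286). Tcirg1 to Atp6v0a1 differed by −0.04 (exact permutation p = 0.886, adjusted p = 0.943) and Ppt2 to Ppt1 by 0.02 (p = 0.943, adjusted p = 0.943). A p that misses the threshold with 4 libraries a group does not show that the members of a pair moved alike.

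The KO_BLM libraries also differed among themselves in the level of the lysosome genes. The summed FPKM of the set was 4286, 4514, 5598 and 5490 in KO_BLM replicates 1 to 4, against 6176, 5816, 6055 and 6097 in WT_BLM replicates 1 to 4. All 4 KO_BLM sums lay below the WT_BLM sums, and KO_BLM replicates 1 and 2 lay well below 3 and 4. Over all 104 tested genes, the lowest KO_BLM library was replicate 1 for 45, replicate 2 for 31, replicate 3 for 6 and replicate 4 for 22, and the highest was replicate 3 for 54, replicate 4 for 27, replicate 1 for 14 and replicate 2 for 9. Among the 42 genes called lower, the lowest KO_BLM library was replicate 1 for 24, replicate 2 for 16, and replicates 3 and 4 for 1 each. The highest was replicate 3 for 29, replicate 4 for 12 and replicate 1 for 1. Summed FPKM of the activators, dominated by Psap, was 881.9, 953.8, 1308 and 1307 in KO_BLM, against 1431, 1299, 1376 and 1360 in WT_BLM, so KO_BLM replicates 3 and 4 reached the WT_BLM range.

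**Figure D4:**
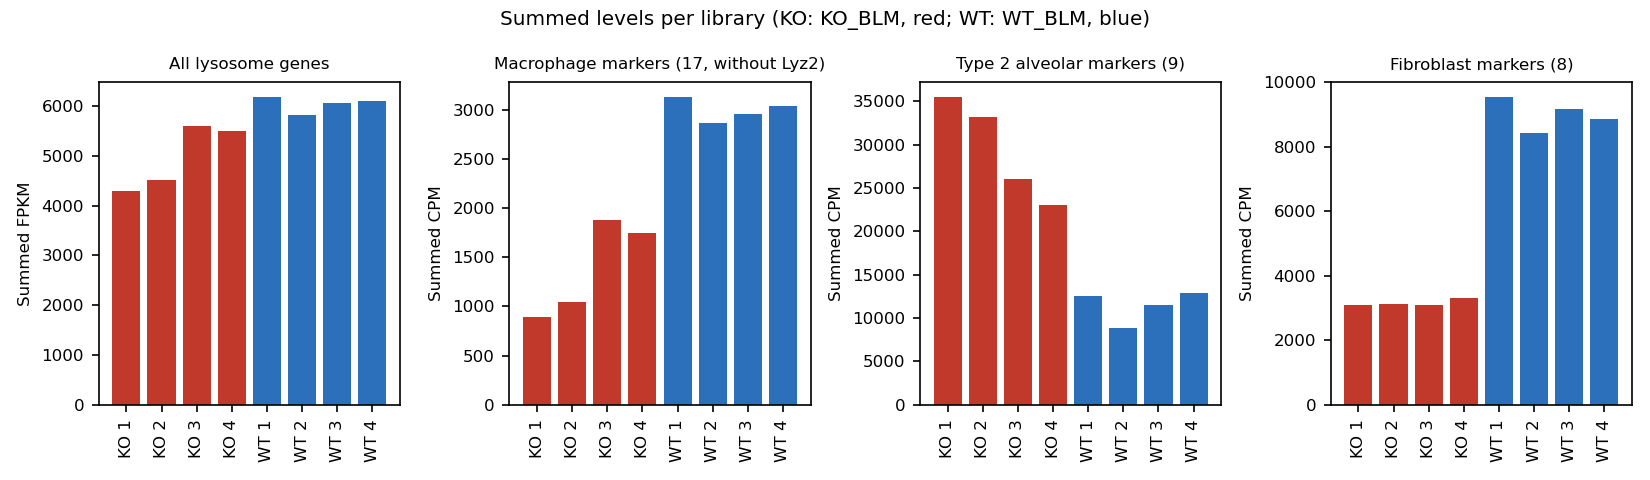
Summed FPKM of all lysosome genes and summed CPM of macrophage markers (17, without Lyz2), type 2 alveolar markers (9) and fibroblast markers (8) in each library, KO_BLM in red and WT_BLM in blue. KO_BLM replicates 1 and 2 lie below 3 and 4 for the lysosome genes and these macrophage markers, and above them for the type 2 alveolar markers. With Lyz2, the macrophage list summed to 7511 to 10695 CPM in KO_BLM and 7010 to 8008 CPM in WT_BLM. The fibroblast markers lie between 3084 and 3317 CPM in KO_BLM and between 8430 and 9542 CPM in WT_BLM.

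Marker genes of several lung cell types differed between the groups, and their part in the lysosome values was not tested. Over all tested genes 20.8% were lower and 20.7% higher in KO_BLM, and the counts below stand beside these shares. Of 18 macrophage markers 12 were lower and 2 higher (Lyz2, which type 2 alveolar cells also express, and Fabp5), with a median log2 fold change of −1.23. Mrc1, the mannose receptor, averaged 84.2 ± 23.4 CPM in KO_BLM and 232.5 ± 47.5 CPM in WT_BLM, and the complement gene C1qc 128 ± 54.7 CPM in KO_BLM and 408 ± 39.5 CPM in WT_BLM (SD, n = 4 each; edgeR adjusted p = 0.000622 and 0.00137). Their summed level was 7511 to 10695 CPM in KO_BLM and 7010 to 8008 CPM in WT_BLM. Without Lyz2, a sum chosen after seeing the data, it was 892, 1045, 1879 and 1751 CPM in KO_BLM, against 3127, 2866, 2956 and 3035 CPM in WT_BLM, with the same libraries low as for the lysosome genes. Of 6 markers of osteoclast-type cells 5 were tested and 2 were lower, Calcr and Ocstamp, and the list summed to 76.9 to 92.7 CPM in KO_BLM and 82.1 to 90.8 CPM in WT_BLM. Most of that sum was Nfatc1, which was not called (means of 69.6 CPM in KO_BLM and 66.3 CPM in WT_BLM). The 2 lower genes were at low levels: Calcr averaged 1.62 CPM in KO_BLM and 6.23 CPM in WT_BLM. Ocstamp averaged 0.573 CPM in KO_BLM and 1.70 CPM in WT_BLM, and its groups overlapped.

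The lists that follow also stand beside the 20.7% higher and 20.8% lower of all tested genes. Type 2 alveolar markers were higher in 9 of 9 (22972 to 35463 CPM in KO_BLM, 8861 to 12863 CPM in WT_BLM), and Sftpa1 averaged 3674 ± 539.9 CPM in KO_BLM and 956 ± 74.8 CPM in WT_BLM (SD, n = 4 each; edgeR adjusted p = 8.5e-06). Fibroblast markers were lower in 7 of 8 (3084 to 3317 CPM in KO_BLM, 8430 to 9542 CPM in WT_BLM), and Col1a1 averaged 440.9 ± 25.8 CPM in KO_BLM and 2427 ± 291 CPM in WT_BLM (SD, n = 4 each; edgeR adjusted p = 1.35e-06). Type 1 alveolar markers were higher in 3 of 6 and lower in 0 (5435 to 5896 CPM in KO_BLM, 4261 to 5398 CPM in WT_BLM). Lymphocyte markers were higher in 8 of 8 (179 to 271 CPM in KO_BLM, 29.4 to 83.5 CPM in WT_BLM), airway markers in 5 of 5 (11680 to 23272 CPM in KO_BLM, 3030 to 9312 CPM in WT_BLM) and erythroid markers in 5 of 5 (1467 to 2844 CPM in KO_BLM, 964 to 1467 CPM in WT_BLM). Endothelial markers were higher in 4 of 6 and lower in 1 (2386 to 3640 CPM in KO_BLM, 2343 to 2948 CPM in WT_BLM). Of 5 tested neutrophil markers 1 was lower, near the share of all genes, and the list of 6 summed to 67.6 to 190 CPM in KO_BLM and 83.3 to 173 CPM in WT_BLM. No listed marker was at 0 counts over the libraries.

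The 5 lysosome genes that did not pass the filter were Ap3b2 (16 counts over all libraries), Dnase2b (10), Hyal5 (1), Hyal6 (2) and Entpd4 (52, all of them in KO_BLM replicates 2 and 4). Entpd4b, a near-identical copy of Entpd4, was tested and had 34, 56, 229 and 33 counts in KO_BLM, against 165, 106, 179 and 227 counts in WT_BLM. KO_BLM replicate 3 stood apart from the other KO_BLM libraries (log2 fold change −0.95 with an SE of 0.57, edgeR adjusted p = 0.2), and without it the gene was called lower (edgeR adjusted p = 0.00288, log2 fold change −2.02, range of p 0.00288 to 0.363). The counting could divide reads between the copies, so the values of both are uncertain. Of the 52 called lysosome genes, the annotated spans of 20 overlap another gene and those of 12 a protein-coding gene, Galns (with Trappc2l) and Asah1 (Frg1) among them.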

How the data were processed

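RNA from mouse lung was sequenced in 8 libraries, 4 of KO_BLM and 4 of WT_BLM, grouped by the sample titles. Count columns carry the name PHT2 for the knockout and were joined to its samples by group and number, and 0 sample columns were unmatched. RNA was extracted with TRIzol and a stranded TruSeq mRNA kit was used for the libraries, per the labels' protocols. The authors deposited read counts as whole numbers, not normalized, and FPKM values, which equal the count over the column total and 1 length per gene and are no independent measurement. Trimmomatic, HTSeq, Cufflinks, DESeq and mm10 are named in the submitters' processing notes, with the aligner, annotation and strand setting not given in the sources used here.

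The members and all lists were chosen with earlier results of these data known. All genes were fitted on the counts with edgeR 4.0.16 in R 4.3.3 (TMM factors, filterByExpr with a minimum count of 10 and a minimum total of 15, robust glmQLFit, quasi-likelihood F test, Benjamini-Hochberg adjustment over 14746 genes, threshold 0.05), and the lysosome genes were read off that fit. The biological coefficient of variation was 16.6%. An SE is the absolute log2 fold change divided by the root of F. Pairs of genes were compared by two-sided exact permutation tests on log2(CPM + 0.5). The steps were tested on simulated data. The rule for values per library took, in each class, the 4 called genes of smallest p and the most abundant gene, then called genes with a log2 change of at least 1 and the genes of the pairs, 46 genes in all. Called genes are named apart from some that are not reported here, and 14 genes that were not called were named after their values were seen. Gene spans, neighbours and promoter windows came from NCBI tables of GRCm38, which matched all 109 genes.

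Each result was recomputed with RLE factors, with library totals alone, without the count filter, with a strict filter (1 CPM in 4 libraries), in DESeq2 1.42.0, in limma-voom, in limma 3.58.1 on log2(FPKM + 1), filtered at 1 FPKM or not, in limma on log2(FPKM + 0.1), with a block for the replicate number, and leaving out each library in turn. Libraries of a group differed by more than sampling noise in every pair (chi-square over degrees of freedom 7.24 to 55.7), and none was merged. Counting error alone bears on genes of few counts, and the spread between libraries on the others.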

Additional observations from a re-analysis of the deposited data

Results flagged for a closer look

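In 9 of 208 groups of 4 libraries (4.33%), 1 library stood apart from the other 3 by Dixon's test; chance alone flags about 1 group in 20, and the cause was not tested. In KO_BLM, Nagpa had 34.6 CPM in replicate 3, against 31.2 to 31.4 CPM in the others, and Entpd4b 11.9 CPM in replicate 3, against 1.72 to 3.12 CPM. Mfsd8 had 15.8 CPM in KO_BLM replicate 1, against 13.4 to 13.8 CPM in the others. In KO_BLM replicate 4, Ap1g1 was high at 136.9 CPM (111 to 115 CPM in the others) and Ppt2 low at 32.6 CPM (41.5 to 42.2 CPM). In WT_BLM replicate 4, Hexa was low at 143 CPM (202 to 206 CPM in the others), Ap1m1 low at 63.9 CPM (76.8 to 79.1 CPM) and Slc11a2 high at 62.4 CPM (53.4 to 54.5 CPM). Ap3m2 had 22.7 CPM in WT_BLM replicate 3, against 17.4 to 18.3 CPM in the others.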

How the results depend on the processing

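Over 18 alternatives, 26 of the 42 genes called lower and 4 of the 10 called higher kept their call in every fit, 0 of these 52 reversed, and of the 52 not called 15 were called somewhere and 21 changed sign. With limma on log2(FPKM + 0.1) and log2(FPKM + 1), 1998 and 2005 of all genes were lower. With limma on log2(FPKM + 1) without a filter, 26 lysosome genes were lower, with 4 membrane proteins and 0 genes of mannose 6-phosphate tagging lower. With library totals alone and in these limma fits, 0 activators, 4 adaptors and 2 pump genes were lower, and, except without the filter, 6 adaptors and 3 glycosidases were higher. Higher glycosidases were 2 in DESeq2 and unfiltered limma. The pump had 0 higher genes with RLE factors and with no count filter. Limma on log2(FPKM + 1) without a filter also ended the calls of Lamp2 and Slc11a1. The call of Laptm4a was also lost with no count filter and with the replicate block. Leaving out 1 library at a time gave 5 to 9 lysosome genes higher and 27 to 45 lower, and 2316 to 2957 and 2178 to 2896 of all genes. By class, 0 to 3 activators were lower, 1 to 3 adaptors higher and 4 to 7 lower, 1 to 2 glycosidases higher, 2 to 4 membrane proteins higher and 4 to 9 lower, 0 to 0 pump genes higher and 2 to 5 lower, 0 to 1 sulfatases higher, and 0 to 1 tagging genes higher. The cause of these moves was not tested.

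The sign of some uncalled values turned. Ap1g1 was 0.012 with library totals and 0.0081, 0.0078 and 0.0078 in the limma fits, and M6pr 0.00061 with library totals. Over the fits that left out 1 library, Ap1m1 ran from −0.057 to 0.064, Nagpa from −0.017 to 0.13 and Ppt1 from −0.022 to 0.14, and the log2 ratios of Ppt2 to Ppt1 from −0.078 to 0.12 and of Tcirg1 to Atp6v0a1 from −0.24 to 0.039. The macrophage marker difference, 1595 CPM, was −1604 CPM without Lyz2.

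Same-numbered samples deviated together little or not at all (correlations 0.12, −0.02, −0.00 and −0.08). The labels do not say whether the numbers pair the samples, and weak correlations cannot decide it. With the replicate number as a block, 42 lysosome genes were lower and 10 higher, 1 activator was lower, 2 glycosidases and 0 pump genes were higher.

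Depth limits only genes of few counts; the libraries' spread, with 4 in a group, limits the rest. Group differences in cell content and in unrecorded handling cannot be told apart from the genotype here.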
